A study of Mus musculus with 12 samples.

Results

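Integrins, laminins and collagens are the receptors and the main structural proteins through which cells attach to the matrix around them. Their genes were taken from the count table by symbol, as every row named Itga or Itgb with a subunit number or letter, Lama, Lamb or Lamc with a number, or Col with a chain number. This gave 84 of the 25674 genes in the table: 26 integrin subunits, 11 laminin chains, 43 collagen chains and 4 genes that share the integrin name without being subunits (Itgb1bp1, Itgb1bp2, Itgb3bp and Itgbl1). RNA was measured in spiral ganglion neurons, the neurons that link cochlear hair cells with the brain, in embryos at E14.5. Neurons with the red reporter tdTomato were sorted by flow cytometry, 100 per library, described as from both inner ears of 1 embryo of either sex. The 6 control libraries were Neurod1Cre;Rosa26tdTOM, so they carried Cre and the reporter too. The 6 libraries labelled ISL1CKO were Neurod1Cre;Isl1loxP/loxP;Rosa26tdTOM, in which Cre removes the flanked part of Isl1, a LIM-homeodomain transcription factor gene, in cells that have expressed Neurod1. Cre came from a BAC transgene, and the lines had a mixed C57BL/6/sv129 background. A label tag calls the numbers technical replicates and the design text calls the samples biological replicates. The p-values measure the spread between these libraries, and litters were not matched to samples here.

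An integrin is a pair of one alpha and one beta subunit, and the alpha subunit sets much of what the receptor binds. Integrins with alpha 3, alpha 6 or alpha 7 bind laminins, the three-chain proteins of basement membranes, whereas those with alpha 5, alpha V or alpha 8 bind an arginine-glycine-aspartate motif in proteins such as fibronectin, and alpha 4 integrins bind another stretch of fibronectin and the cell-surface protein VCAM1. In the developing ear, neurites grow along laminin and fibronectin that other cells largely secrete, and fibrillar collagens are classical products of mesenchyme.

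Total counts ran from 11895603 to 13857480 per library, so that 3 counts, used as the floor of detection, stood for 0.219 to 0.250 CPM (a gene's counts relative to the library total after TMM scaling), counting error only. The 12 neuronal marker genes were all detected, and Tubb3 lay between 2769 and 4630 CPM in the ISL1CKO libraries and between 2809 and 3622 in the controls. Isl1 itself had 1050, 1497, 1406, 1441, 1361 and 1589 CPM in ISL1CKO libraries 1 to 6 and 1171, 1777, 1569, 1429, 1708 and 1574 in controls 1 to 6, with no difference past the threshold (log2 fold change -0.15, SE 0.11, edgeR adjusted p = 0.460). A count over the whole gene can hold reads from outside the removed part and does not check the deletion. Of the ISL1CKO libraries, 3 (numbers 2, 3 and 5) held both Xist and Y-linked transcripts at over 10 CPM, and no control did. That is at odds with the description of each library as cells of 1 embryo, and its reason was not tested. The n = 6 given below therefore counts libraries. Macrophage markers summed to between 2.17 and 795 CPM in the ISL1CKO libraries (median 127) and between 3.48 and 414 in the controls (median 10.2). Schwann cell and satellite glia markers summed to 91.7 to 387 CPM in ISL1CKO (median 247) and 212 to 381 CPM in controls (median 325).

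Of the 84 genes, 41 had enough counts in enough libraries to be tested: 13 integrin subunits, the 4 non-subunits, 5 laminins and 19 collagens. Itga4 and Col3a1 were higher and Itga7 was lower in ISL1CKO at an edgeR quasi-likelihood adjusted p under 0.05. These 3 were 7.32% of the 41, where 10.2% of all 14813 genes tested passed, 5.01% higher and 5.19% lower. The libraries of the genotypes did not overlap for Itga4 and Col3a1, 2 of the 41, where 6.78% of all genes tested showed no overlap (3.13% higher and 3.65% lower in ISL1CKO). The share past the threshold was therefore not above that of other genes. An unadjusted edgeR p under 0.05 was found for 10 of the 41 and for 3454 of all 14813 genes tested. The median log2 fold change was 0.62 over the integrins, with 9 above and 4 below zero. It was 0.35 over the laminins, with 4 above and 1 below, -0.17 over the collagens, with 8 above and 11 below, and 0.0045 over all genes tested. The 43 untested members, 13 integrins, 6 laminins and 24 collagens, had between 10 and 205 counts in all 12 libraries together. In 7 of them at least 50% of the counts came from a single library, and 11 had no library with more than 10 counts.

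**Figure D1:**
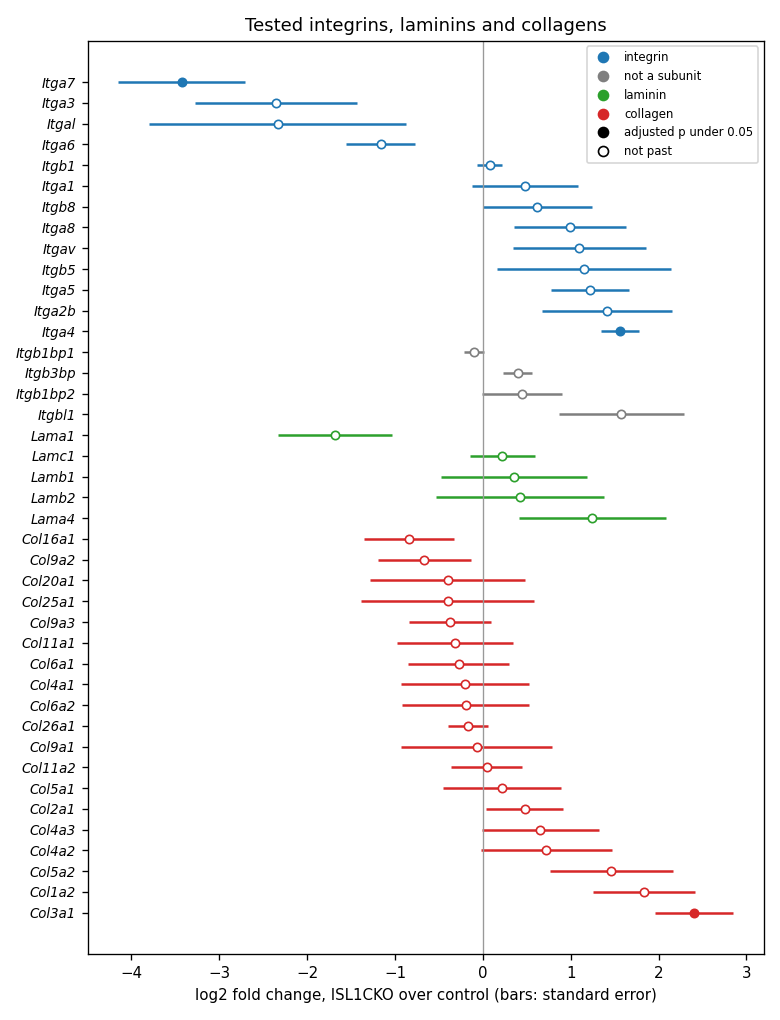
Log2 fold change (ISL1CKO over control, x axis) of the 41 tested genes (y axis), with bars of 1 standard error, coloured by family and filled where the adjusted p was under 0.05. The filled points are Itga7 at -3.43, Itga4 at 1.56 and Col3a1 at 2.40.

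Promoter windows are shown for the 2 genes whose libraries did not overlap and for Itgb1, which was the most abundant integrin gene and was level between the genotypes. Each holds the 250 bases before the RefSeq start (GRCm38.p6), 5′ to 3′ on the gene's strand. Capitals mark TAAT on either strand (ATTA on the other), the core letters of many homeodomain binding sites, and overlapping matches run together. The windows are Itga4 at chr2:79255176-79255425, Col3a1 at chr1:45311288-45311537 and Itgb1 at chr8:128685404-128685653, all on the plus strand.
Itga4: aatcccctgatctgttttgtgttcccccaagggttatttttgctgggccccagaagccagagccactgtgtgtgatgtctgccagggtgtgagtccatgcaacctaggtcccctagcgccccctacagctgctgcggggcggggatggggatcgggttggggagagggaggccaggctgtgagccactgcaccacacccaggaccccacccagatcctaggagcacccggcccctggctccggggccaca
Col3a1: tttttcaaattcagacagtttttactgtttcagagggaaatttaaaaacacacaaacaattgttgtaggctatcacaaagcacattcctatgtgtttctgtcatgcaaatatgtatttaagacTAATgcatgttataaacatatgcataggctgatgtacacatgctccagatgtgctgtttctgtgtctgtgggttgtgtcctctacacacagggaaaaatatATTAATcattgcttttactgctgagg
Itgb1: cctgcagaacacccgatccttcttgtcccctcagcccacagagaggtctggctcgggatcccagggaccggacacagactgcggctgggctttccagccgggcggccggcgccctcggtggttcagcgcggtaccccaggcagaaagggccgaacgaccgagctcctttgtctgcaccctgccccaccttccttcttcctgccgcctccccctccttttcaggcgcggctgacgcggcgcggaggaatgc
The Itga4 window held 0 matches, 64.0% G and C and 6 CpG pairs, and the Itgb1 window held 0 matches, 68.0% G and C and 21 CpG pairs. The Col3a1 window held 3 matches, 35.2% G and C and 0 CpG pairs. Among all 32851 windows of this length, 54.9% held TAAT, with a median G and C content of 52.4% and 6 CpG pairs. Of the 66 windows found for 60 of the 84 genes, 34.8% held it. None of these windows was for Itga7, the other member past the threshold, so none is shown for it. A match in letters is not a binding site.

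Itga4 encodes the alpha 4 subunit and lies at chr2:79255426-79333123 on the plus strand (GRCm38). The control libraries held 17.4, 33.6, 17.9, 37.7, 26.3 and 20.6 CPM of Itga4, and the ISL1CKO libraries held 73.0, 88.1, 61.4, 57.5, 101 and 72.7 CPM. The lowest ISL1CKO library was above the highest control. Itga4 rose from 25.6 ± 8.51 to 75.6 ± 16.3 CPM (SD, n = 6 each), a log2 fold change of 1.56 (SE 0.21, edgeR adjusted p = 1.95e-04). With any single library left out the log2 fold change stayed between 1.46 and 1.70 and past the threshold. Of the Itga4 exon bases, 8.04% overlap Cerkl on the opposite strand, and whether counting used strand is not given in the sources used here. Cerkl measured 42.3 ± 4.94 CPM in controls and 52.2 ± 9.50 in ISL1CKO (SD, n = 6 each; log2 fold change 0.31, edgeR adjusted p = 0.193).

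Itga4 also lies 119397 bases from Neurod1, the gene whose sequence drives Cre in all 12 libraries. Neurod1 (chr2:79452521-79456751) rose from 1471 ± 351 to 2715 ± 621 CPM (SD, n = 6 each), with no overlap and a log2 fold change of 0.88 (SE 0.18, edgeR adjusted p = 0.00435). The table held 4 genes within 300.0 kb of Itga4, namely Itga4, Cerkl, the pseudogene Gm13673 and Neurod1. Gm13673 had 0.571 ± 0.422 CPM in controls and 1.14 ± 0.624 in ISL1CKO (SD, n = 6 each; log2 fold change 1.00, edgeR adjusted p = 0.331). The stretch of this region carried by the transgene and its copy number in each embryo are not given in the sources used here, and their part in the Itga4 counts was not tested.

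The laminin-binding alpha subunits lay on the other side, with all 3 log2 fold changes below zero. Itga7 encodes the alpha 7 subunit, best known from muscle and also from regrowing neurons, and lies at chr10:128933818-128958282. The controls held 5.82, 5.92, 2.25, 11.6, 0.872 and 4.47 CPM of Itga7, and the ISL1CKO libraries 0.158, 1.55, 0.226, 0.149, 0.438 and 0.305 CPM. The groups overlapped through control 5 and ISL1CKO 2, and in 3 ISL1CKO libraries Itga7 was at or under the floor of 3 counts. Itga7 fell by 3.43 on the log2 scale, from 5.16 ± 3.75 to 0.471 ± 0.540 CPM (SD, n = 6 each; SE 0.72, edgeR adjusted p = 0.00579). The log2 fold change ran from -4.29 to -3.02 with 1 library left out, past the threshold each time. Itga7 and Itga3 passed the filter on low counts through the controls, since at most 1 ISL1CKO library of each reached it.

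Itga6 (chr2:71745616-71858416), the alpha 6 subunit, had the highest level per length of the 3 laminin-binding alpha genes over all libraries. Controls held 60.1, 20.4, 41.9, 38.4, 25.9 and 45.5 CPM of Itga6, and ISL1CKO libraries 28.4, 34.1, 6.70, 17.0, 9.34 and 8.23 CPM. ISL1CKO 1 and 2 lay within the range of the controls, and the other 4 lay under it. The means were 38.7 ± 14.2 and 17.3 ± 11.5 CPM (SD, n = 6 each), and the difference missed the threshold (log2 fold change -1.16, SE 0.40, edgeR adjusted p = 0.0800). It passed with DESeq2 (adjusted p = 0.0174), with limma-voom (adjusted p = 0.0350), without ISL1CKO 2 (log2 fold change -1.48, adjusted p = 0.0288) and with the mean glial and macrophage marker levels (log2 scale) as covariates (-1.95, adjusted p = 0.00700). Itga3, the alpha 3 subunit, held 7.48, 1.18, 6.34, 5.41, 2.54 and 6.30 CPM in the controls and 4.28, 0.0776, 0.151, 0, 0.729 and 0.457 CPM in ISL1CKO. ISL1CKO 1 lay among the controls and the other 5 lay under every control. The difference did not pass (log2 fold change -2.35, SE 0.92, edgeR adjusted p = 0.129), and without ISL1CKO 1 it was -4.06 (adjusted p = 0.00492). Itga3 also passed with DESeq2 (adjusted p = 0.0478), with limma-voom (0.0348) and with the replicate number as a block (0.0408).

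The alpha subunits that bind arginine-glycine-aspartate all had log2 fold changes above zero, and 0 of these 4 passed in edgeR, with 1 at an unadjusted p under 0.05 (Itga5, which DESeq2 called at an adjusted p of 0.0441). Itga5, the fibronectin receptor's alpha subunit, held 4.15, 6.36, 5.92, 1.93, 1.82 and 7.17 CPM in controls and 7.44, 9.62, 8.51, 4.26, 10.5 and 23.5 in ISL1CKO. The groups overlapped only through ISL1CKO 4 (log2 fold change 1.22, SE 0.44, edgeR adjusted p = 0.102). Itgav, the alpha V subunit, ranged from 0.159 to 11.3 CPM in controls and from 0.828 to 19.4 in ISL1CKO (log2 fold change 1.10, SE 0.76, edgeR adjusted p = 0.423). Itga8 had a log2 fold change of 0.99 (SE 0.64, adjusted p = 0.384) and Itga2b, the platelet integrin subunit, one of 1.42 (SE 0.74, adjusted p = 0.271). Itga2b means were 0.491 CPM in controls and 1.33 CPM in ISL1CKO, near the floor. Of the collagen-binding subunits, Itga1 was tested (log2 fold change 0.48, adjusted p = 0.693), and Itga2, Itga10 and Itga11 were not. Itga9, the closest relative of Itga4, had 126 counts in all and was not tested.

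**Figure D2:**
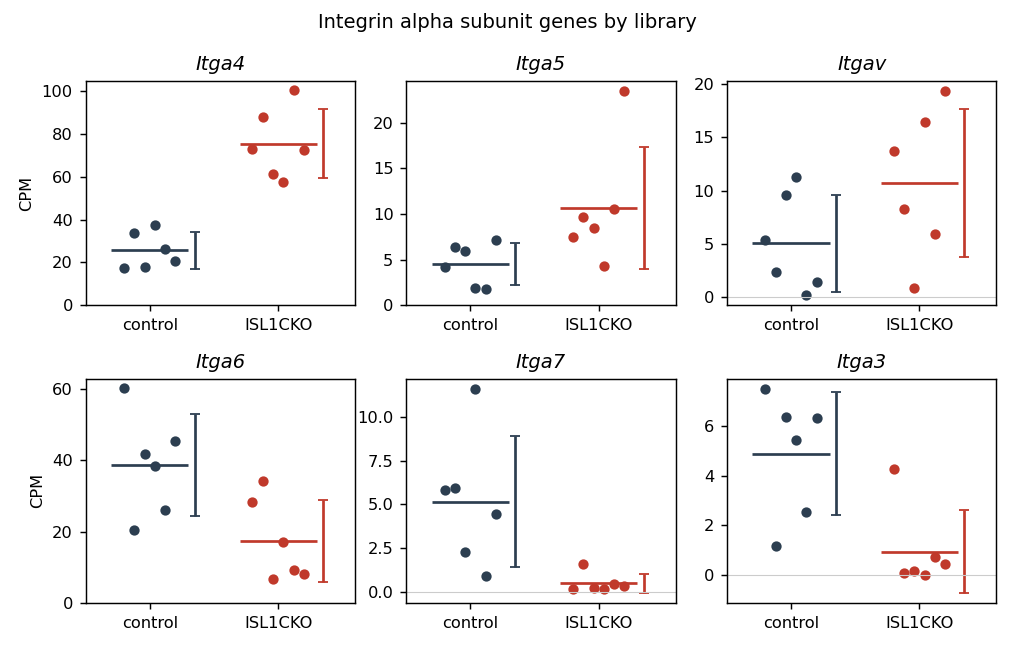
Levels (y axis, CPM) of 6 integrin alpha subunit genes in the 6 control and 6 ISL1CKO libraries, 1 point per library, with the mean as a line and the SD as a bar. The Itga4 points of the groups do not overlap (17.4 to 37.7 against 57.5 to 101), and Itga6, Itga7 and Itga3 each have 1 or 2 ISL1CKO points inside the range of the controls.

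Itgb1, the beta 1 subunit that pairs with most of these alphas, held 78.5% of all integrin signal per length (47.1 CPM per kilobase of exon over all libraries, against 3.62 for Itga4 and 3.10 for Itga6). Itgb1 held 197, 179, 150, 226, 194 and 177 CPM in controls and 195, 201, 121, 232, 210 and 225 CPM in ISL1CKO. The groups overlapped throughout, with ISL1CKO 3 the lowest of the 12. The means were 187 ± 25.3 and 197 ± 40.1 CPM (SD, n = 6 each; log2 fold change 0.08, SE 0.14, edgeR adjusted p = 0.789). Itgb5 and Itgb8, partners of alpha V, had log2 fold changes of 1.15 (SE 0.99, adjusted p = 0.539) and 0.62 (SE 0.62, adjusted p = 0.605). Itgb3, Itgb4 and Itgb6 were too low to test.

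The make-up of the alpha genes differed between the genotypes on the per-length scale. The ratio of Itga4 to Itga6 in CPM per kilobase ran from 1.66 to 6.96 in the ISL1CKO libraries, with a median of 3.95, and from 0.187 to 1.06 in the controls, with a median of 0.463. Itga4 made up 37.0% to 55.7% of the summed alpha signal in ISL1CKO and 9.68% to 23.0% in controls. Itga4 was the highest alpha gene per length in 6 of 6 ISL1CKO libraries, whereas Itga6 was the highest in 4 controls and Itgal in controls 2 and 5. Since the ratio is built from the differences already given, it is a description and not a further test.

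**Figure D3:**
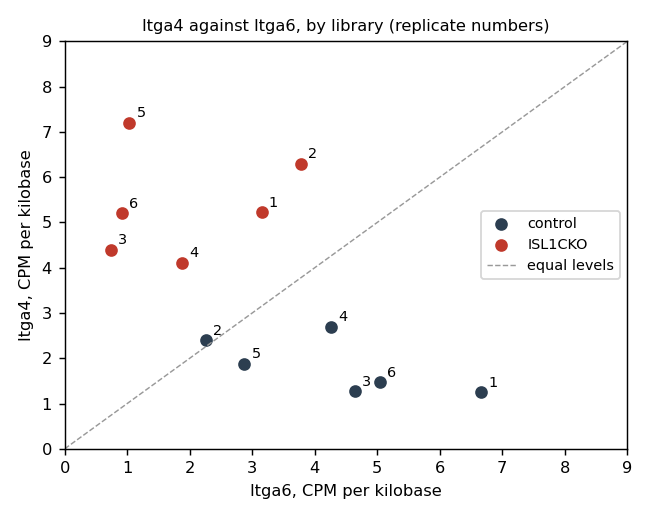
Itga4 (y axis) against Itga6 (x axis) in CPM per kilobase of exon, 1 point per library, with replicate numbers and a dashed line of equal levels. All 6 ISL1CKO points lie above the line, and of the controls only number 2 does, at a ratio of 1.06.

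Itgal, the alpha subunit of a leukocyte integrin, was erratic. Control 2 held 49.9 and control 5 held 20.6 CPM, ISL1CKO 4 held 8.89 CPM, and the other 9 libraries held between 0 and 2.94 CPM (log2 fold change -2.34, SE 1.46, edgeR adjusted p = 0.375). Its partner Itgb2 had 30 counts in all, 19 of them in control 1. The macrophage receptor gene Csf1r held 0.0740 CPM in control 2 and 0 in control 5, against 61.6 in control 1 and 57.9 in ISL1CKO 4. The other leukocyte subunits, Itgad, Itgae, Itgam, Itgax and Itgb2l, were not tested. The 4 non-subunits did not pass, with 2 at an unadjusted p under 0.05. Itgb3bp, a centromere protein, had a log2 fold change of 0.40 (adjusted p = 0.154). Itgbl1, a secreted integrin-like protein, had one of 1.58 (adjusted p = 0.194).

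Among the laminins, 0 of 5 tested chains passed in edgeR, with 1 at an unadjusted p under 0.05, and DESeq2 and limma-voom also called 0. Lamc1, the gamma 1 chain shared by most laminins, held 57.5% of the laminin signal per length. Lamc1 held 20.9, 9.62, 6.59, 22.3, 13.4 and 25.5 CPM in controls and 19.7, 28.5, 6.55, 17.6, 14.51 and 27.7 CPM in ISL1CKO. Both groups covered the same range (log2 fold change 0.22, SE 0.37, edgeR adjusted p = 0.774). Lama1, an alpha chain of early basement membranes, held 3.41, 3.33, 8.59, 2.89, 1.98 and 7.10 CPM in controls and 1.66, 0.233, 0.903, 4.33, 1.02 and 0.305 CPM in ISL1CKO. All ISL1CKO libraries but number 4 lay under every control (log2 fold change -1.68, SE 0.65, edgeR adjusted p = 0.125). Without ISL1CKO 4 the Lama1 value was -2.45 and passed (adjusted p = 0.0221).

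Lama4, an alpha chain of vessel and nerve basement membranes, ranged from 0.370 to 5.07 CPM in controls and from 0.152 to 16.5 in ISL1CKO (log2 fold change 1.24, SE 0.84, edgeR adjusted p = 0.410). With the glial and macrophage marker levels as covariates the Lama4 value was 0.08. The beta chains Lamb1 and Lamb2 had log2 fold changes of 0.35 (SE 0.83, adjusted p = 0.846) and 0.43 (SE 0.95, adjusted p = 0.838), and that of Lamb1 turned negative under several alternatives. Lama5 held at most 0.834 CPM in any library. Lamb3, a beta chain of epithelial basement membranes, was untested and was singled out after its values were seen. Lamb3 held 2.38, 0, 1.43, 0, 2.63 and 1.52 CPM in ISL1CKO and at most 0.370 in controls.

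**Figure D4:**
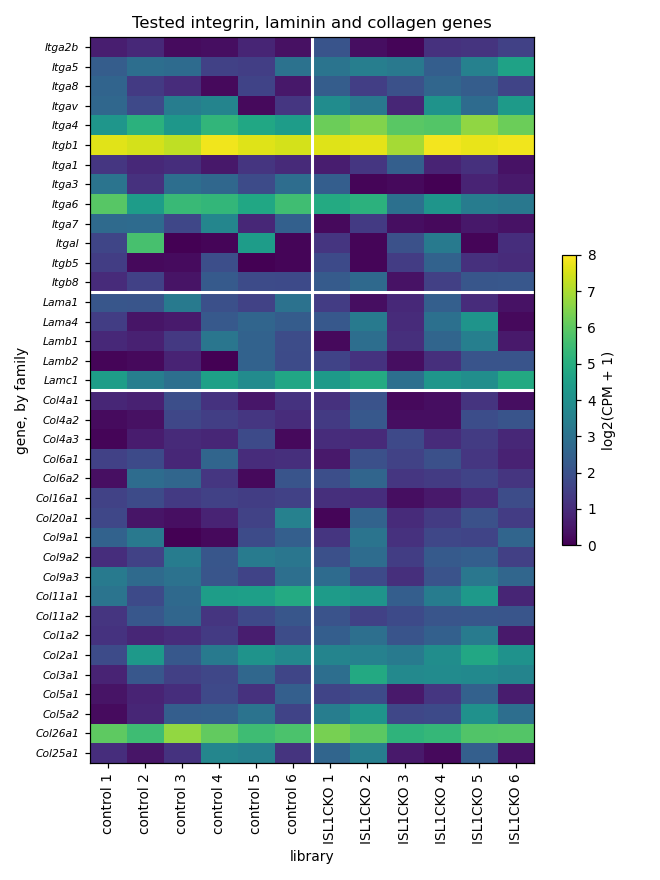
Level of the 37 tested integrin, laminin and collagen genes (rows, by family, white lines between families) in 12 libraries (columns, controls left of the white line), coloured by log2(CPM + 1). Itgb1, Itga4, Itga6, Lamc1 and Col26a1 stand out as the bright rows, and most other rows are dark in most libraries.

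Among the collagens 1 of 19 tested chains passed. Col3a1, the chain of type III collagen, lies at chr1:45311538-45349706 on the plus strand. The controls held 0.748, 3.55, 1.84, 2.22, 5.39 and 2.20 CPM of Col3a1, and the ISL1CKO libraries 6.41, 28.2, 12.6, 13.4, 12.8 and 11.3 CPM. Every ISL1CKO library was above every control, and ISL1CKO 2 was the highest. Col3a1 rose from 2.66 ± 1.61 to 14.1 ± 7.34 CPM (SD, n = 6 each), a log2 fold change of 2.40 (SE 0.44, edgeR adjusted p = 0.00241). It stayed between 2.08 and 2.73 with 1 library left out, past the threshold each time. Without the 3 ISL1CKO libraries with transcripts of both sexes it was 1.95 and missed the threshold (adjusted p = 0.0577).

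The fibrillar collagens had 6 of 7 tested log2 fold changes above zero. Col1a2, a chain of type I collagen, held 1.25, 0.814, 1.00, 1.56, 0.555 and 2.64 CPM in controls and 4.20, 6.52, 3.24, 4.48, 9.12 and 0.457 CPM in ISL1CKO. All ISL1CKO libraries but number 6 lay above every control (log2 fold change 1.83, SE 0.58, edgeR adjusted p = 0.0602). Without ISL1CKO 6 the Col1a2 value was 2.07 (adjusted p = 0.0124) and without control 6 it was 2.16 (adjusted p = 0.0448). Its partner chain Col1a1 was not tested, with 62 counts in all, 30 of them in ISL1CKO 2. Col5a2 ranged from 0.166 to 7.29 CPM in controls and from 2.26 to 16.5 in ISL1CKO (log2 fold change 1.46, SE 0.70, edgeR adjusted p = 0.226). Col2a1, the cartilage collagen that the developing ear also makes, ranged from 2.58 to 19.0 CPM in controls and from 8.73 to 26.6 in ISL1CKO (log2 fold change 0.48, adjusted p = 0.572). Col11a1, the single fibrillar chain below zero, had -0.32 (SE 0.66, adjusted p = 0.822).

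Col26a1 was the most abundant collagen, with 37.8% of the collagen signal per length. Col26a1 held 62.2 ± 21.8 CPM in controls and 55.2 ± 16.4 in ISL1CKO (SD, n = 6 each; log2 fold change -0.17, SE 0.23, edgeR adjusted p = 0.706). The 5 tested fibril-associated collagens all lay below zero without passing, among them Col9a2 at -0.67 (SE 0.53, adjusted p = 0.497) and Col9a1 at -0.07 (SE 0.86, adjusted p = 0.973). The direction of Col9a1 flipped under several alternatives. Col4a1 and Col4a2, the main basement membrane collagen chains, had -0.20 (SE 0.73, adjusted p = 0.905) and 0.72 (SE 0.75, adjusted p = 0.621), both at a few CPM at most. Col6a1 and Col6a2 had -0.27 and -0.19. Of the transmembrane collagens only Col25a1 was tested (-0.40, SE 0.98, adjusted p = 0.853), and its controls alone ranged from 0.370 to 11.8 CPM.

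**Figure D5:**
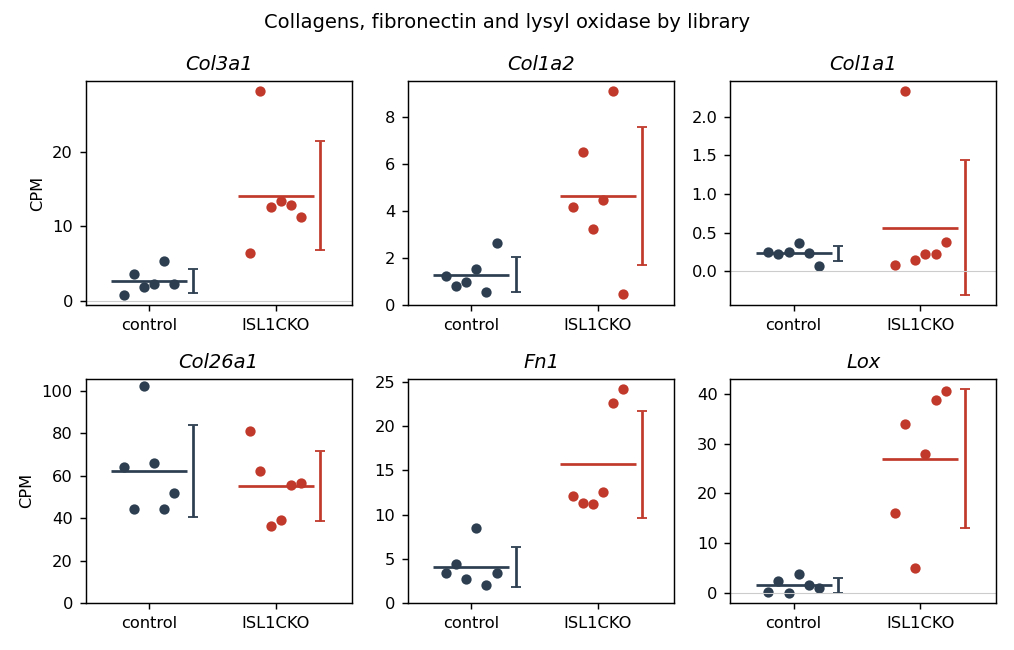
Levels (y axis, CPM) of 4 collagen genes, Fn1 and Lox in the 6 control and 6 ISL1CKO libraries, 1 point per library, with the mean as a line and the SD as a bar. Col3a1, Fn1 and Lox do not overlap between the groups, Col26a1 overlaps throughout, and the Col1a1 mean of ISL1CKO rests on the point at 2.33 CPM.

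Summed over each family, the levels overlapped between the groups. The integrins summed to 243 to 347 CPM in controls and 215 to 361 in ISL1CKO, the laminins to 16.3 to 44.8 and 12.2 to 50.5, and the collagens to 106 to 173 and 88.1 to 212. ISL1CKO 3 had the lowest sum of all 12 libraries in each family.

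Genes that work with these families were read from 4 lists, whose counts are to be read against the 10.2% of all genes tested that passed (5.01% higher and 5.19% lower) and the median of 0.0045. Of the intracellular adaptors that tie integrins to actin, 1 of 24 tested passed and was lower (median log2 fold change 0.06). Parvb, the adaptor beta-parvin, which joins integrin-linked kinase to actin, held 62.6, 89.2, 91.5, 63.9, 69.5 and 60.3 CPM in controls and 45.9, 25.8, 29.9, 33.0, 19.2 and 23.8 CPM in ISL1CKO. No library of one group reached the other. Parvb fell by 1.30 on the log2 scale, from 72.9 ± 13.9 to 29.6 ± 9.30 CPM (SD, n = 6 each; SE 0.19, edgeR adjusted p = 4.58e-04).

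Of the other integrin ligands, 1 of 13 tested passed and was higher (median 0.33). Fn1, fibronectin, a ligand of alpha 4, alpha 5 and alpha V integrins, held 3.41, 4.44, 2.67, 8.44, 2.06 and 3.37 CPM in controls and 12.1, 11.3, 11.2, 12.5, 22.6 and 24.2 CPM in ISL1CKO. The groups did not overlap. Fn1 rose from 4.06 ± 2.29 to 15.7 ± 6.05 CPM (SD, n = 6 each), a log2 fold change of 1.94 (SE 0.36, edgeR adjusted p = 0.00248). Vcam1, the other classical ligand of alpha 4, had at most 0.878 CPM in controls and 2.38 CPM in ISL1CKO and was not tested. Spp1, osteopontin, which binds several integrins, was the most abundant gene of the list and was singled out after its values were seen. Spp1 held 1713, 835, 1795, 1377, 924 and 1750 CPM in controls and 426, 164, 816, 289, 23.3 and 122 CPM in ISL1CKO. The groups did not overlap, but the difference missed the threshold (log2 fold change -2.19, SE 0.64, edgeR adjusted p = 0.0515). It passed without ISL1CKO 3 (adjusted p = 0.0139), without ISL1CKO 5 (0.0196) and without ISL1CKO 2, 3 and 5 together (0.00552).

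Of the other basement membrane and laminin-binding genes, 1 of 18 tested passed and was higher (median -0.23). Frem2, an extracellular protein of epithelial basement membranes, had 0.204 ± 0.162 CPM in controls and rose to 2.03 ± 1.34 in ISL1CKO (SD, n = 6 each; log2 fold change 3.25, SE 0.68, edgeR adjusted p = 0.00571). Control values of Frem2 reached at most 0.444 CPM, so that it passed the filter on low counts through the ISL1CKO libraries, and the call was lost without ISL1CKO 2, 3 and 5 (adjusted p = 0.0824). Dag1, dystroglycan, a laminin receptor that is not an integrin, had a log2 fold change of 0.20 (SE 0.20, adjusted p = 0.588). Of the collagen processing genes and collagen receptors, 2 of 23 tested passed and were higher (median 0.0073). Lox, lysyl oxidase, which cross-links collagen and elastin, held 0.166, 2.44, 0.0834, 3.85, 1.66 and 1.02 CPM in controls and 16.0, 33.9, 4.97, 28.0, 38.7 and 40.5 CPM in ISL1CKO. Every ISL1CKO library was above every control. Lox rose from 1.54 ± 1.45 to 27.0 ± 14.0 CPM (SD, n = 6 each), a log2 fold change of 4.11 (SE 0.69, edgeR adjusted p = 0.00118). Pcolce2, an enhancer of procollagen cleavage, rose from 8.79 ± 3.01 to 18.6 ± 4.74 CPM with overlap between the groups (SD, n = 6 each; log2 fold change 1.08, SE 0.27, edgeR adjusted p = 0.0180), and the call was lost without ISL1CKO 2, 3 and 5 (adjusted p = 0.179) and with the marker covariates (0.0944).

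Markers of other cells were read beside these genes, since Col3a1, Lox and Fn1 are abundant in mesenchyme. Of 13 mesenchyme and fibroblast markers 11 had a row, and 2 were tested. Tbx18, a transcription factor of mesenchyme, rose from 1.09 ± 1.45 to 39.5 ± 10.0 CPM with no overlap (SD, n = 6 each; log2 fold change 5.18, edgeR adjusted p = 3.49e-04). Pou3f4, the factor of the mesenchyme around the otic capsule and ganglion, had 52.9 CPM in controls and 27.4 in ISL1CKO (log2 fold change -0.95, adjusted p = 0.143). Prrx1 held 0.337 CPM in controls and 4.72 in ISL1CKO and was not tested. In ISL1CKO, Twist1 and Foxc2 were at most 0.0776 CPM, Lum at most 1.19 and Dcn at most 1.46. Twist1 was 0.250 to 2.37 in controls. Control and ISL1CKO means were 0.237 and 0.685 CPM for Dcn, 0.196 and 0.701 for Pdgfra and 0.296 and 0.310 for Osr1. They were 0.474 and 0.273 CPM for Lum, 0.319 and 0.152 for Foxc1, 0.232 and 0.127 for Twist2 and 0.110 and 0.0129 for Foxc2. The mesenchyme list summed to 50.0 to 87.9 CPM in ISL1CKO and 36.0 to 82.3 in controls. Most of this sum was Tbx18 and Pou3f4, which moved in opposite directions, so the overlap of the sums cannot show whether mesenchyme differed. Fewer or more cells of a type and less or more RNA per cell cannot be told apart in such bulk samples, and the part of mesenchyme in the collagen results was not tested.

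Among the Schwann cell and satellite glia markers 7 of 10 were tested, and Ngfr was lower (log2 fold change -1.07, edgeR adjusted p = 0.00177) while Sox10 and Erbb3, among others, did not pass. No marker of macrophages passed in edgeR (10 tested, median log2 fold change 1.63). Nor did any marker of endothelium (1 tested), otic epithelium and hair cells (2 tested) or red blood cells (1 tested). Of the pericyte and megakaryocyte markers 0 could be tested. The pericyte list summed to 0.602 to 12.0 CPM in ISL1CKO, with a median of 4.41, and to 0.501 to 2.30 in controls, with a median of 0.772. Its member Abcc9 held 3.56, 5.9, 0.0753, 2.69, 0.948 and 2.97 CPM in ISL1CKO and at most 0.0834 in controls, Notch3 had means of 0.781 and 0.120 CPM, and Pdgfrb, a defining marker, 0.383 and 0.358. The part of pericytes in the collagen results was not tested. Of the chondrocyte list Sox9 was tested and was lower (log2 fold change -2.07, edgeR adjusted p = 0.00228), with Acan at most 0.501 CPM and Matn1 at most 0.166 CPM. Of the untested members of that list, Cnmd had a mean of 0.0367 CPM in controls and 1.33 in ISL1CKO, with 6.21 in ISL1CKO 2. Hapln1 had 0.465 and 1.32, with 4.12 in ISL1CKO 6. Matn4 had 0.0908 and 0.668, Ucma 0.0138 and 0.287, and Matn3 0.0655 and 0.194. Comp and Acan went the other way, with 0.330 and 0.0384 CPM for Comp and 0.174 and 0.139 for Acan. All 12 neuronal markers were tested, and 2 were higher (Stmn2 and Neurod1) and 5 were lower (Elavl4, Nefl, Nefm, Gata3 and Mapt). Counts of markers are to be read against the 10.2% of all genes tested that passed (5.01% higher and 5.19% lower). The share of the neuronal markers lay above it. With the glial and macrophage marker levels as covariates Itga4, Itga7 and Col3a1 all stayed past the threshold. The glial level includes Ngfr, which was itself lower in ISL1CKO, so this fit cannot separate glial content from genotype. In that fit the glial term passed for 0 of the 41 genes, where 0% of all genes tested passed. The macrophage term passed for 0 of the 41, where 0.257% of all genes passed. At an unadjusted p under 0.05 the glial term had 8 of the 41 (Col11a1, Lama4, Col25a1, Itga6, Col5a1, Lamc1, Lamb1 and Itgb1). The macrophage term had 4 of the 41 (Itga6, Itgb1, Itgb5 and Lamc1). How many of all genes had such a p was not counted for these terms, so the 8 and the 4 have no share to be read against. Reading these terms was decided after the data were seen.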

How the data were processed

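The members, the gene lists and the settings were chosen with earlier results of these data known. Per the labels' protocols, libraries were made with the NEB low input kit and read on an Illumina NextSeq 500. The authors deposited raw gene counts for 25674 Ensembl identifiers in 12 libraries, with no normalization. The submitters' processing notes name cutadapt 1.18, Bowtie 1.2.2, STAR 2.7.0c, featureCounts and GRCm38.p6 without their order. The annotation, the handling of shared reads and the use of strand are not given in the sources used here. Each column was assigned to a sample through its genotype word and number. Coordinates and exon lengths come from GENCODE M21 for the same identifiers, and promoter windows from RefSeq.

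Counts were tested with edgeR 4.0.16 in R 4.3.3 (filterByExpr with a minimum count of 10, TMM, robust quasi-likelihood F-test, no covariate), with Benjamini-Hochberg adjustment over 14813 genes and a threshold of 0.05. Standard errors are the absolute log2 fold change divided by the square root of F. In the text, adjusted p without another tool's name is from edgeR. CPM per kilobase divides by exon length. Genes were named if past the threshold, if among the 3 highest of a family per length, if on a list of 16 members of common interest, or if among the 3 smallest p of a pathway list and past the threshold. Itga5, Itga8, Itgal, Lama1, Col5a2 and Spp1, with the genes given for context in lists and near Itga4, were named after their values were seen. Some items are not reported here. There were 4 pathway lists and 10 marker lists. Alternatives were upper quartile scaling or DESeq2 size factors, either no filter or a mean CPM of at least 5, DESeq2 1.42.0 with its Wald test, limma-voom 3.58.1, the replicate number as a block, marker levels as covariates, leaving out ISL1CKO 2, 3 and 5, and leaving out each library.

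Tested on simulated counts for this comparison (14358 genes, 192 of them changed), edgeR recovered 51.1% of changes of 1 and 81.6% of changes of 2 on the log2 scale, with 1.54% of its calls false. DESeq2 recovered 60.6% and 88.8% with 17.7% false, and limma-voom 48.9% and 75.5% with 0.826% false. The false calls numbered 2 of 130 for edgeR, 31 of 175 for DESeq2 and 1 of 121 for limma-voom. Such a share depends on how many genes change, and 10.2% of the genes passed in the real data. The simulated spread between libraries was also the one that edgeR estimated. These shares therefore do not carry over to the real calls of each tool. Within a group, the chi-square of counts per degree of freedom between libraries was 20.9 to 52.2, so no library was present more than once in a group. Libraries of different groups were not compared in this way.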

Additional observations from a re-analysis of the deposited data

Results flagged for a closer look

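Of 70 group values checked for the named genes and family sums, 12 had 1 library far from the other 5 of its group. The rule sets about 1 in 20 apart by chance if values are independent and normally distributed. CPM of genes with few counts need not be, and the family sums hold the named members. The 12 are therefore values to inspect and are not shown to exceed chance. In ISL1CKO 2 these were Col3a1 at 28.2 CPM (others 6.41 to 13.4), Col1a1 at 2.33 CPM (others 0.0792 to 0.381) and Itga7 at 1.55 CPM (others 0.149 to 0.438). ISL1CKO 2 is also 1 of the 3 libraries with transcripts of both sexes. ISL1CKO 3 was low for Itgb1, at 120.7 CPM (others 195 to 232), and for the summed integrins, at 214.7 CPM (others 343 to 361). In ISL1CKO 1, Itga3 was at 4.28 CPM (others 0 to 0.729). In ISL1CKO 4, Itgal was at 8.89 CPM (others 0.0729 to 2.94) and Lama1 at 4.33 CPM (others 0.233 to 1.66), and this library had the highest macrophage marker sum, 795 CPM. In ISL1CKO 6, Itga5 was at 23.5 CPM (others 4.26 to 10.5). Among the controls, Col26a1 was at 102.5 CPM (others 44.3 to 65.9) and Col4a1 at 2.75 CPM (others 0.396 to 1.26) in control 3, and Fn1 was at 8.44 CPM (others 2.06 to 4.44) in control 4.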

How the results depend on the processing

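Itga4 and Itga7 kept their direction and stayed past the threshold under all alternatives that tested them. The integrin count of 2 became 5 with the DESeq2 Wald test, 4 with limma-voom and 1 with a mean of at least 5 CPM, and ran from 2 to 3 with 1 library left out. The collagen count of 1 became 2 with the DESeq2 Wald test and 0 without ISL1CKO 2, 3 and 5 (edgeR, 1 at an unadjusted p under 0.05), and ran from 1 to 2 with 1 library left out, 2 without ISL1CKO 6 or control 6. The laminin count of 0 (edgeR, 1 at an unadjusted p under 0.05) ran from 0 to 1, the 1 being Lama1 without ISL1CKO 4. The count over all genes, 1511, fell to 767 without ISL1CKO 2, 3 and 5 and ran from 1178 to 1517 with 1 library left out. The causes were not tested, beyond there being fewer samples or genes.

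Same-numbered libraries were not treated as pairs in the main fit. Their deviations correlated between -0.0564 and 0.155, and 2 of 6 ISL1CKO libraries correlated best with the control of their own number. Whether same-numbered libraries shared a litter or a day of preparation was not tested. With the replicate number as a block, 1450 genes, 3 integrins, 0 laminins (edgeR, 1 at an unadjusted p under 0.05) and 1 collagen passed, and Itga3 (-3.47, adjusted p = 0.0408) and Spp1 (-2.74, adjusted p = 0.0124) were gained.

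Among the genes named by the rule or singled out, directions turned only for those that did not pass. With the block these were Col9a1 (0.62), Itgal (0.29) and Lamb1 (-0.24). With limma-voom they were Col9a1 (1.04) and Lamb1 (-0.22). With marker covariates they were Col9a1 (0.083), Itgb1 (-0.12), Lamb1 (-0.41), Lamc1 (-0.26) and, of the genes given for context, Col5a1 (-0.22) and Col6a2 (0.74). Lamb1 was -0.66 without ISL1CKO 2, 3 and 5. With 1 library left out, Col9a1 ran from -0.50 to 0.44, Col4a1 from -0.94 to 0.22, Lamb1 from -0.19 to 0.89 and Col26a1 from -0.32 to 0.0205. The 43 members that were not tested had enough counts in too few libraries. Col23a1, with 205 counts in all, was among them, whereas Itga2b, with 142, was tested.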
